A study of Mus musculus with 38 samples.

Results

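The heat shock chaperones are described here across 38 one-colour arrays of stromal vascular cells from epididymal fat of C57BL/6J mice. The members were chosen by name, as the array probes (control spots left out) whose gene name is Hspa1a, Hspa1b, Hspb1, Dnajb1, Hsph1, Hsp90aa1, Hspa8, Hspd1 or Hspe1. Of these 9 genes, 8 were named by at least 1 probe, among 29411 gene names on the array, and together they had 14 probes. Hspa1b was named by no probe of its own. Where a gene had several probes, the brightest probe over all arrays stood for it, and all 14 probes were tested.

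The mice were split into diet groups after weaning, at 3 to 4 weeks of age. The low fat control group (LFC) ate a normal diet with 10% of calories from fat, and the high fat control group (HFC) ate a high fat, high sucrose diet with 60% of calories from fat. The other groups ate the high fat, high sucrose diet with 5, 20 or 75 µg of the botanical formulation KAL-1 and are called HF5, HF20 and HF75. LFC and HFC had 10 arrays each, at D6, D10 and D14 (D for day) and at W0, W3, W6, W9, W12, W15 and W18 (W for week). Each dose had 6 arrays, from W3 to W18. Each diet had a single array at a time point, so the error of a difference between diets comes from the spread over time points. In the dose comparisons that spread is pooled over all diets. No array of a diet had a replicate at its own time point. The labels mention 5 mice killed per group every 3 weeks and the design text 3 biological replicates, but the sources used here do not state whether an array holds the cells of 1 mouse or of several. For HF5 and HF20 at W15 and W18, the diet label names the other dose than the source name, which was used here.

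Heat shock proteins bind unfolded or partly folded proteins and keep them from clumping until they fold. When unfolded protein builds up in the cytosol, the transcription factor HSF1 leaves its chaperone complexes, binds heat shock elements in promoters and raises the transcription of inducible chaperones such as Hspa1a and Dnajb1. Other members, such as Hspa8, are made in unstressed cells as well, and Hspd1 and Hspe1 work inside mitochondria. Stress in the endoplasmic reticulum is met by a separate set of chaperones, under the unfolded protein response, which is well known in the fat of obese animals.

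The name Hspa1a was carried by 4 probes. The gene encodes the inducible cytosolic Hsp70 and has a near copy, Hspa1b. The transcripts that the array lists for each probe were used to sort the probes, and their sequences were not compared with Hspa1b. GT_Mm_44k_52_P82741 and GT_Mm_44k_51_P117952 list the Hspa1a transcript alone and overlap each other by 30 bases. GT_Mm_44k_52_P52803 and GT_Mm_44k_52_P304902 list the transcripts of both genes, so their values cannot be assigned to either copy. The bases shared by the first pair are shown in capitals and the second pair in full, as the scanner files give them, 5′ to 3′.
Hspa1a P82741 and P117952, shared bases: AGGGAAACTAAACTGTCTTTCAGTTACTTT
Hspa1a and Hspa1b P52803: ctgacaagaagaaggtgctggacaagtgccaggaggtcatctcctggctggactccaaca
Hspa1a and Hspa1b P304902: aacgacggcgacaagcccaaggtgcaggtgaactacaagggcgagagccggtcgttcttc

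The promoters of members were read from RefSeq sequences of build GRCm38.p6, from 250 bases before to 50 bases after each transcript start. They are shown because HSF1 reads the same short motif in several members. An entry was found for 7 of the 9 genes (Hspa1a, Hspa1b, Hspb1, Dnajb1, Hsph1, Hspd1 and Hspe1). The motifs searched were GAANNTTC and TTCNNGAA, which read the same on both strands, and their 3-unit extensions GAANNTTCNNGAA and TTCNNGAANNTTC, which contain the shorter ones. A 2-unit motif was present in the promoters of 6 of the 7 genes, against 15.1% of 32851 promoters of the same length. A 3-unit motif was present for Hspd1, Hspe1 and Hsph1, against 0.603% of all promoters. Hspd1 had an entry for each of 2 transcript starts, and the motifs were in 1 of them only. For Hsph1 the 3-unit motif lies after the transcript start. The 2 Dnajb1 windows held none of these letters. Each line below gives 30 bases with the motif in capitals, on the strand of the gene.
Hspa1a, chr17:34972242-34972271, minus strand: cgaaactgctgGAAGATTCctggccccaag
Hspa1b, chr17:34959324-34959353, minus strand: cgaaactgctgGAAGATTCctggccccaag
Hspb1, chr5:135887811-135887840, plus strand: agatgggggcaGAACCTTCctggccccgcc
Hsph1, chr5:149636351-149636380, minus strand: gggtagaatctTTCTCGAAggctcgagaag
Hspd1, chr1:55088053-55088082, minus strand: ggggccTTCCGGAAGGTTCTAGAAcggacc
Hspe1, chr1:55088053-55088082, plus strand: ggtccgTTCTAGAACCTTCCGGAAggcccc

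The Hspa1a and Hspa1b stretches were identical in these 30 bases, and 247 of the 250 bases before the start were the same in both genes. Hspd1 and Hspe1 lie on opposite strands. The Hspe1 start and the Hspd1 start whose promoter holds the motifs are 216 bases apart and face away from each other, while the other Hspd1 start lies on the far side of the Hspe1 start, and the last 2 lines are the same bases read from each side. A match of letters says nothing about binding in these cells.

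A level is the log2 of the processed signal of a probe minus the log2 of the 75th percentile signal of its array, so that 0 is the 75th percentile. Levels of different probes are not set against each other. In scanner units, the 75th percentile was 25.8 on the dimmest array, HF5 W12, and 1983 on the brightest, HFC W0. All 14 probes were marked well above background on every array that measured them, except GT_Mm_44k_52_P304902, which was not on LFC W9. Saturated spots give lower bounds. The representing probe was saturated on 13 arrays for Hspa1a, 14 for Hspa8, 10 for Hsp90aa1 and 2 for Dnajb1, and on none for Hspb1, Hsph1, Hspd1 and Hspe1. Outlier spots left the representing Hspa8 probe without a value on LFC D10 and GT_Mm_44k_52_P52803 without one on HFC D10.

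The labels describe the cells as infiltrating macrophages. Of 10 macrophage entries, at least 8 were well above background on every array. Emr1 and Adgre1 are names of the same gene, which is counted under both. Their score (mean level) ran from -0.73 to 2.82 over the arrays, and that of 9 adipocyte genes from -0.66 to 5.14. Of the arrays, 4 stood apart. The arrays of W9 in LFC and HFC and of W12 in LFC and HF75 had adipocyte scores of 4.78 to 5.14, where the highest of the other 34 was 3.85 (LFC D6). The same 4 arrays had immediate early gene scores of 0.07 to 1.84, and the other 34 had 4.04 to 5.76. They are called adipocyte-rich below. They were picked out by these markers, so the chaperones on them are described with no test. The sample titles of LFC W9 and HFC W9 carry a letter code found in no other title, and that of LFC W12 names no time point. The title of HF75 W12 has the same form as that of HFC W12. The titles do not say whether these samples were prepared in another way, and this was not tested.

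Hspa1a varied most of the members. On the LFC arrays its level was 5.82 at D6, 7.99 at D10 (saturated), 6.00 at D14, 5.21 at W0, 4.99 at W3, 4.94 at W6, 0.06 at W9, 0.19 at W12, 5.77 at W15 (saturated) and 6.89 at W18. On the HFC arrays it was 5.41 at D6, 7.18 at D10 (saturated), 5.02 at D14, 4.95 at W0 (saturated), 5.37 at W3, 5.56 at W6 (saturated), 0.07 at W9, 6.10 at W12 (saturated), 5.53 at W15 and 6.86 at W18. The level was thus low on 3 of these 20 arrays and at least 4.94 on the rest. HF5 arrays ran from 5.13 at W3 to 6.58 at W12, and HF20 arrays from 5.53 at W3 to 6.52 at W9 (saturated). HF75 was at 2.87 at W12 and between 5.39 and 6.53 at its other time points.

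**Figure D1:**
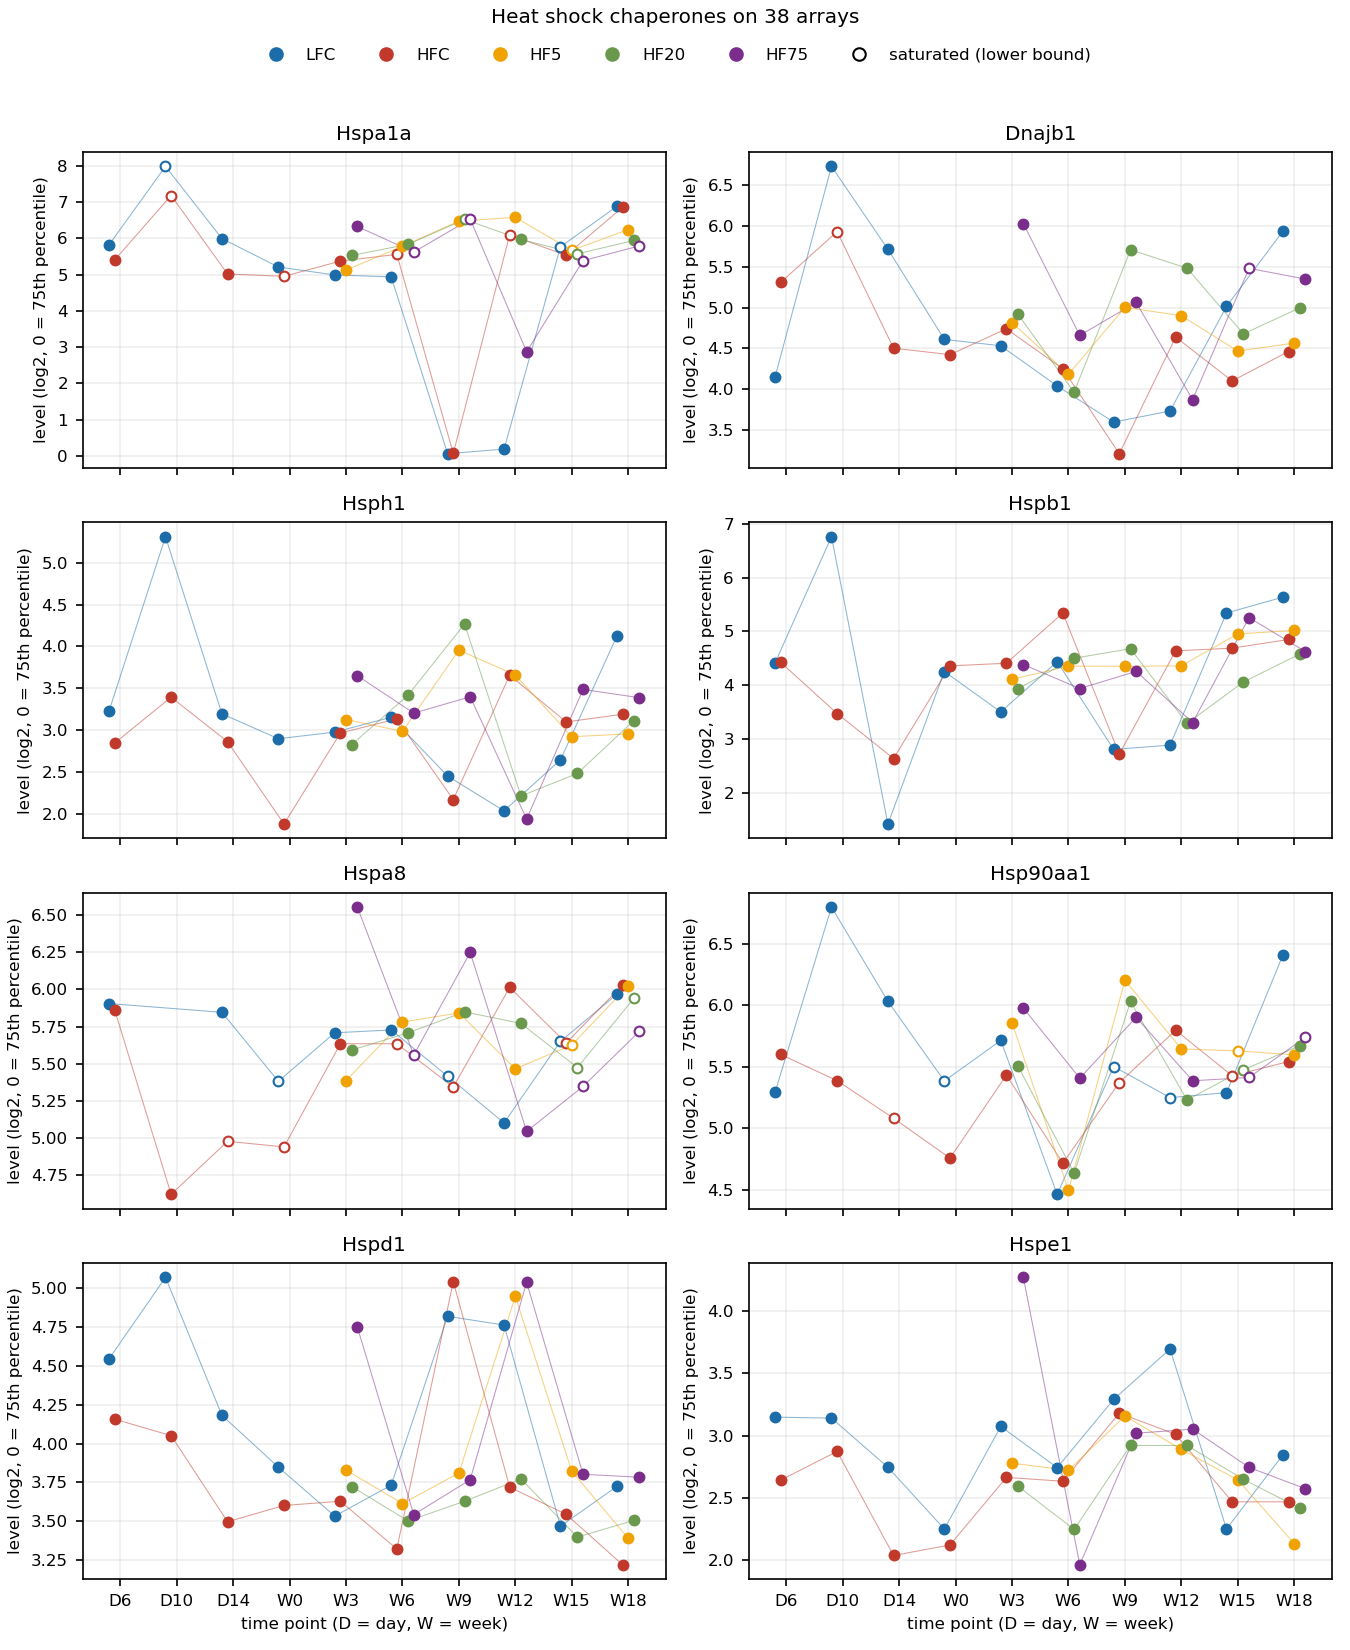
Level of the representing probe of each of the 8 chaperones (y axis, log2, 0 is the 75th percentile of the array) at each time point (x axis) in the 5 diets, 1 point per array, open where the spot was saturated and the level is a lower bound. Hspa1a is at 0.06 and 0.07 on LFC W9 and HFC W9 and at 0.19 on LFC W12, while Hspd1 is at 4.76 to 5.04 on these arrays.

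The low Hspa1a levels were shared by all 4 probes. On the adipocyte-rich arrays GT_Mm_44k_51_P117952 was between -0.20 and 2.48, and it was at least 4.72 on the other 34. GT_Mm_44k_52_P52803, which lists the transcripts of both copies, was between -2.31 and -0.47, and at least 2.17 on the 33 others that measured it. GT_Mm_44k_52_P304902 was between -6.28 and -2.33, and at least -1.98 on the other 34. In each probe the 4 adipocyte-rich arrays lay below every other array, and the mean of the 4 was lower by 5.10 to 5.59 on the log2 scale. With normexp background correction the difference of GT_Mm_44k_52_P304902 was -3.37.

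**Figure D2:**
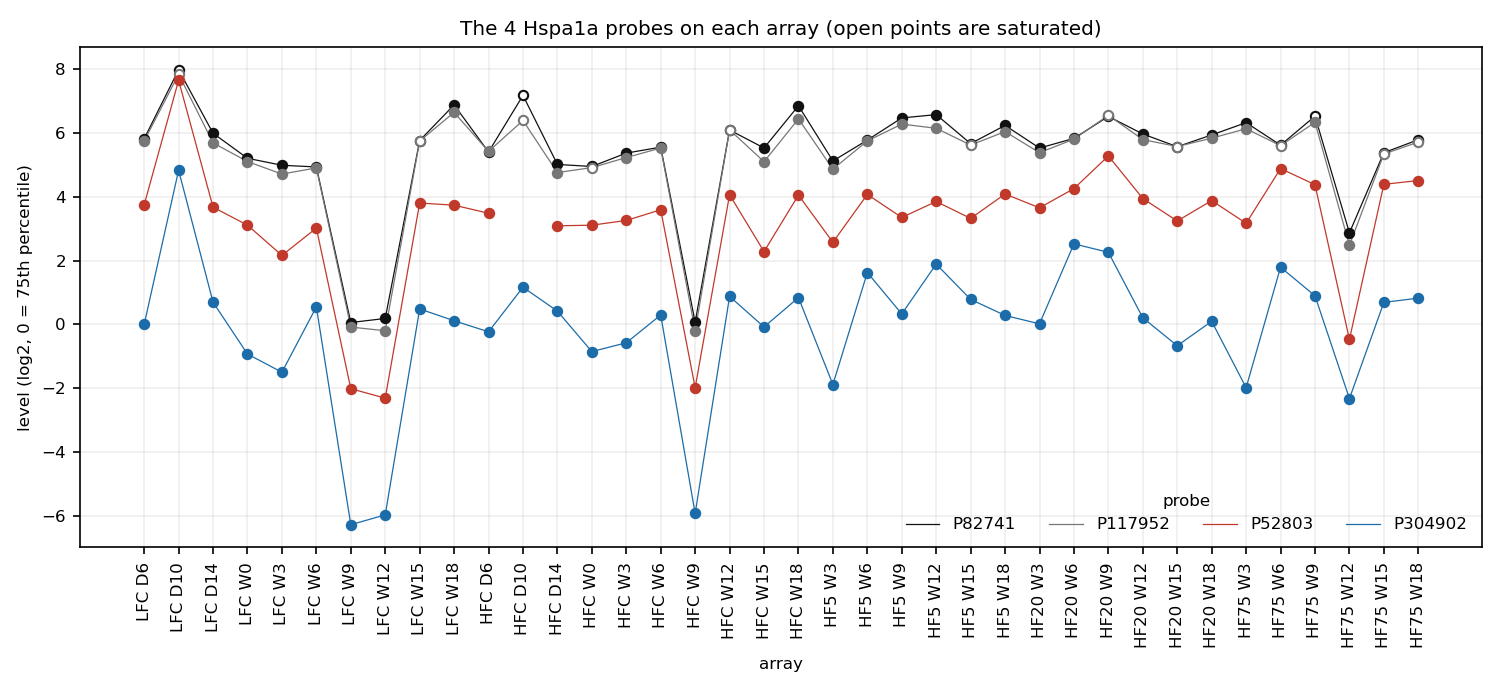
Level (y axis, log2, 0 is the 75th percentile of the array) of the 4 Hspa1a probes on each of the 38 arrays (x axis, by diet and time point), open where saturated. All 4 lines are lowest on LFC W9, LFC W12, HFC W9 and HF75 W12 and highest on LFC D10, where the representing probe is at 7.99.

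The diets of 1 time point did not move together. At W9 the Hspa1a level was 0.06 in LFC and 0.07 in HFC but 6.48 in HF5, 6.52 in HF20 and 6.53 in HF75. The W9 arrays of the 3 doses were scanned on another day than those of LFC and HFC, so scan day and diet cannot be told apart at W9. At W12 the 5 arrays were scanned on the same day, and the level was 0.19 in LFC, 6.10 in HFC, 6.58 in HF5, 5.97 in HF20 and 2.87 in HF75. LFC W12 was below HFC W12 by 5.91 on the log2 scale, a lower bound because the HFC spot was saturated. The sample title of LFC W12 names no week, unlike that of HFC W12, so a like preparation of these arrays cannot be taken as given.

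Among the other inducible cytosolic members, Dnajb1, an Hsp40 that delivers clients to Hsp70 and starts its ATP hydrolysis, was lowest on the same arrays. Its level was 3.59 on LFC W9, 3.21 on HFC W9, 3.73 on LFC W12 and 3.87 on HF75 W12, and the other 34 arrays ran from 3.96 to 6.74. The second Dnajb1 probe, GT_Mm_44k_52_P171663, ran from -0.44 to 0.10 on the 4 and from 0.72 to 3.50 on the others. Of 27540 probes measured on all arrays, 1.34% had the 4 adipocyte-rich arrays below all others and 3.58% had them above all others. Of the 6 Hspa1a and Dnajb1 probes, 5 were among these and all 5 belonged to the first kind. The Hspa1a probe GT_Mm_44k_52_P52803 and the representing Hspa8 probe were not measured on all arrays and were left out of this count. GT_Mm_44k_52_P52803 was not measured on HFC D10 and had the 4 below all 33 others.

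Hsph1 (Hsp110, a nucleotide exchange factor for Hsp70) and Hspb1 (Hsp27, a small heat shock protein that holds unfolded proteins) were lower on the adipocyte-rich arrays but within the range of the others. Hsph1 was at 1.94 on HF75 W12, 2.03 on LFC W12, 2.17 on HFC W9 and 2.45 on LFC W9, and its median on the others was 3.14. HFC W0 was lower still, at 1.88. Hspb1 was at 3.30, 2.88, 2.72 and 2.80 in the same order, and its median on the others was 4.41. Its lowest level was 1.42, on LFC D14, the array of highest epididymis marker score (3.66). D14 and W0 are the same elapsed day once the days are counted as in the study's methods. The LFC array of W0 had Hspb1 at 4.25, and in HFC the level was 2.64 at D14 and 4.36 at W0.

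Hspa8 and Hsp90aa1 lay within the range of the other arrays. Hspa8 (Hsc70, the constitutive Hsp70) was between 5.04 and 5.42 on the adipocyte-rich arrays, with a median of 5.71 on the others, and its second probe, GT_Mm_44k_52_P12877, was between 3.05 and 3.95, with a median of 4.05. Hsp90aa1, the stress-inducible cytosolic Hsp90, was at 5.25 on the lowest and 5.50 on the highest of the 4, with a median of 5.53 on the others. The difference of the means was -0.14 for Hsp90aa1, and its sign turned to 0.33 with quantile normalization and to 0.14 with normexp background correction. The spots of Hspa8 and Hsp90aa1 on LFC W9 and HFC W9 and of Hsp90aa1 on LFC W12 were saturated, so these levels are lower bounds.

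The mitochondrial pair was higher there. Hspd1 (Hsp60, the mitochondrial chaperonin) was at 5.04 on HF75 W12, 4.76 on LFC W12, 5.04 on HFC W9 and 4.82 on LFC W9, and its median on the others was 3.72. The highest of the others were LFC D10 (5.07), HF5 W12 (4.95) and HF75 W3 (4.75). Hspe1 (Hsp10, its lid) was at 3.05, 3.69, 3.18 and 3.29 in the same order, with a median of 2.69 on the others. The mean of the 4 was higher by 1.11 for Hspd1 and by 0.61 for Hspe1 on the log2 scale. In a bulk sample, fewer cells of a type and less RNA per cell cannot be told apart, and the part of adipocyte RNA in these levels was not tested.

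**Figure D3:**
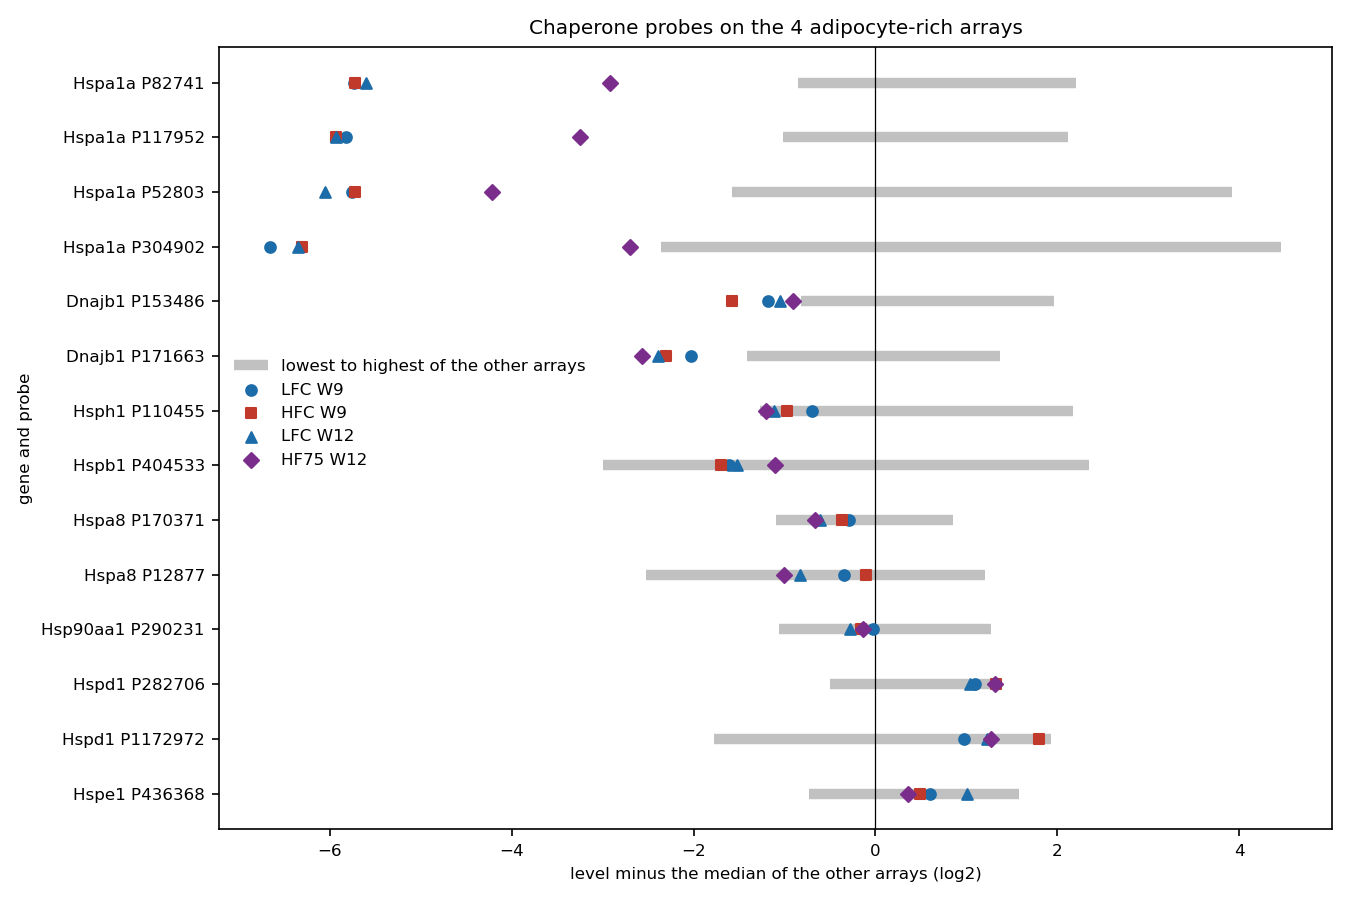
Level of each chaperone probe on the 4 adipocyte-rich arrays minus the median of the other arrays (x axis, log2), with grey bars from the lowest to the highest of the others, 1 row per gene and probe. The 4 points lie left of the bar in the Hspa1a and Dnajb1 probes and right of 0 in the Hspd1 and Hspe1 probes.

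Other chaperone genes were taken from 5 lists. On the adipocyte-rich arrays, all 7 mitochondrial chaperones and proteases were higher in mean than on the other 34 arrays, with a median difference of 1.11 on the log2 scale, beside -0.05 over all probes compared. For Trap1 (the mitochondrial Hsp90), Clpx (which feeds the ClpXP protease) and Grpel1 (a nucleotide exchange factor of mitochondrial Hsp70), all 4 arrays were above all others. Trap1 was between 1.78 and 2.63 on the 4 and at most 1.50 elsewhere. Of 16 measured endoplasmic reticulum chaperones and unfolded protein response genes, 14 were lower in mean, with a median of -0.52. Hspa5 (BiP, the Hsp70 of the endoplasmic reticulum) was between 4.65 and 4.91, beside a median of 5.72 on the others.

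The 20 HSF1 response genes and cytosolic co-chaperones were split, 10 lower and 10 higher, with a median of 0.02. Bag3, an Hsp70 co-chaperone and HSF1 target, was at 1.63 on LFC W9 and HFC W9 and at 1.45 on LFC W12, below all other arrays (median 2.66). St13, an Hsp70 co-chaperone also called Hip, was above all other arrays on all 4 (3.15 to 3.63, at most 2.80 elsewhere). Hsf1 itself was between 0.62 and 1.07 on the 4 and had a median of 0.98 on the others. Of 3 small heat shock proteins, Hspb8 (2.54 to 2.87, at most 2.39 elsewhere) and Cryab were higher in mean and Hspb2 was lower. The 7 subunits of the cytosolic chaperonin were all higher in mean, by a median of 0.30, but 3 of them were lower with quantile normalization.

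**Figure D4:**
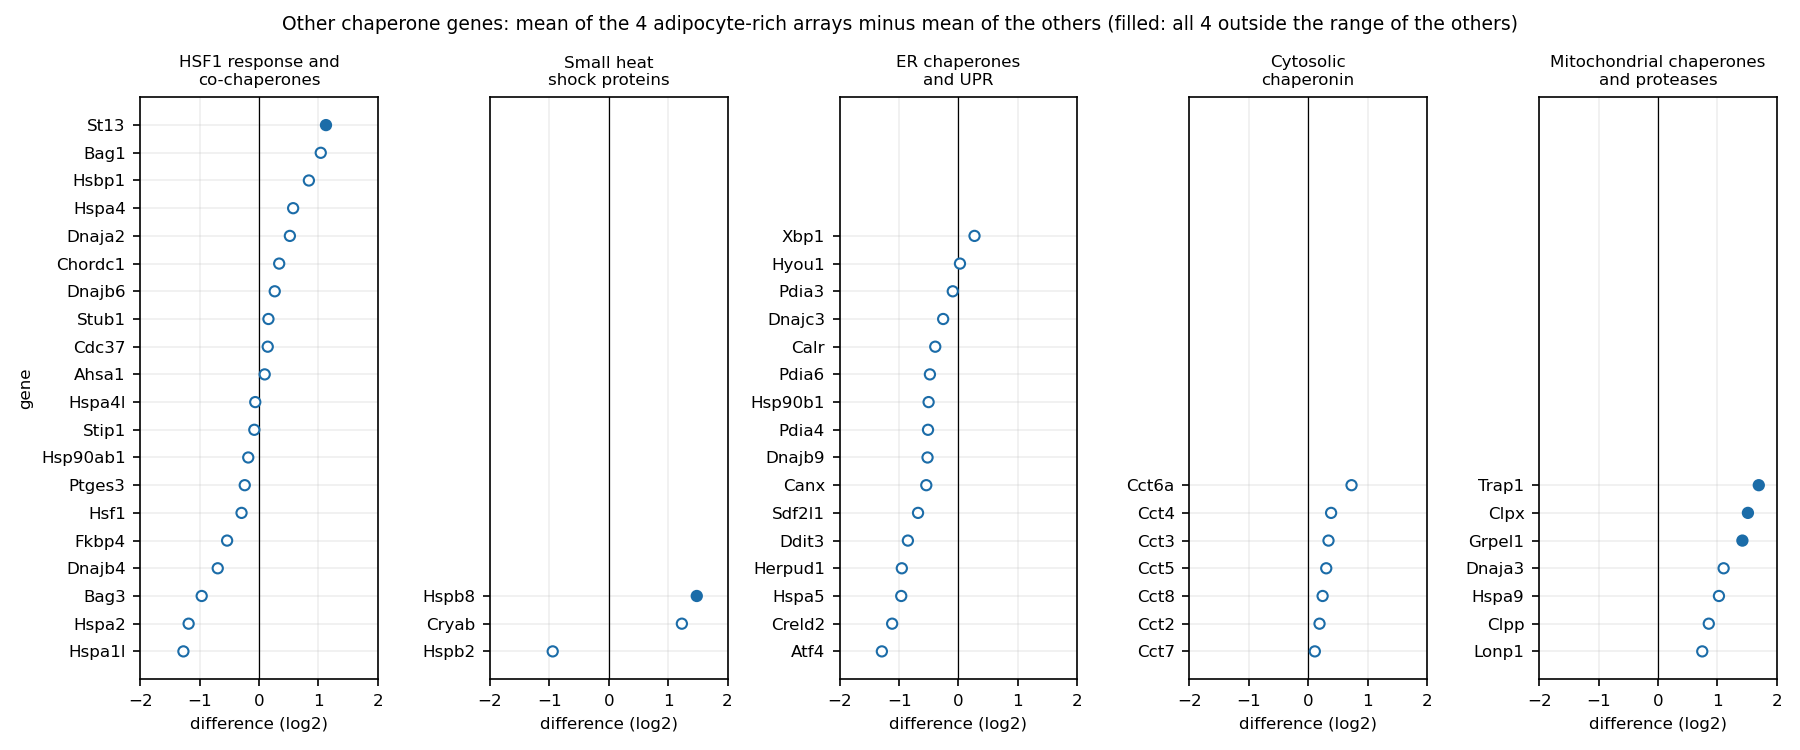
Mean level of the 4 adipocyte-rich arrays minus the mean of the other 34 (x axis, log2) for other chaperone genes (y axis), 1 panel per list, filled where all 4 arrays lay outside the range of the others. All 7 mitochondrial genes lie right of 0, and 14 of 16 genes of the endoplasmic reticulum list lie left of it.

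At the high end, LFC D10 held the highest level of 6 of the 7 members it measured. Its Hspa1a level was 7.99 (saturated), Dnajb1 6.74, Hsph1 5.31, Hspb1 6.76, Hsp90aa1 6.80 and Hspd1 5.07. The HFC array of the same day was at 7.18 for Hspa1a (saturated), 5.93 for Dnajb1 (saturated), 3.39 for Hsph1, 3.47 for Hspb1, 5.39 for Hsp90aa1 and 4.05 for Hspd1. LFC D10 also had the highest endothelial (4.80) and erythroid (4.78) marker scores and the lowest mesothelial score (-5.61) of the 38 arrays. The part of these cells in the chaperone levels was not tested. HF75 W3, the second dimmest array, held the highest Hspa8 (6.56) and Hspe1 (4.27).

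The first comparison was between HFC and LFC at the same time points and asked which members differ with the fat content of the diet. No chaperone passed an adjusted p of 0.05 in limma, with the time point as a block term, and neither did any of 31034 probes (0%). Of the 8 genes, 2 were above 0 and 6 below 0, with a median difference of -0.27 on the log2 scale. Hspd1 and Hspe1 had unadjusted p-values below 0.05, as did 9.08% of all probes tested. The Hspd1 level of LFC was 4.55 at D6, 5.07 at D10, 4.18 at D14, 3.85 at W0, 3.53 at W3, 3.73 at W6, 4.82 at W9, 4.76 at W12, 3.47 at W15 and 3.72 at W18. That of HFC was 4.16, 4.05, 3.50, 3.60, 3.63, 3.32, 5.04, 3.72, 3.54 and 3.22 at the same time points. The ranges of the diets overlapped, and HFC was lower by more than 1 at D10 and W12 alone. Hspd1 differed by -0.39 (SE 0.16, p = 0.0347, adjusted p = 0.5448), with HFC below LFC at 7 of 10 time points. The Hspe1 level ran from 2.25 (W0 and W15) to 3.69 (W12) in LFC and from 2.04 (D14) to 3.18 (W9) in HFC. Hspe1 differed by -0.31 (SE 0.13, p = 0.0399, adjusted p = 0.5448), with HFC below LFC at 9 of 10. The second Hspd1 probe, GT_Mm_44k_52_P1172972, differed by -0.16 (SE 0.30). Both Hspd1 probes list further transcript records beside that of Hspd1, and which genes these belong to was not checked. Without the adipocyte-rich arrays, the differences were -0.39 (p = 0.0404) for Hspd1 and -0.29 (p = 0.0779) for Hspe1. With quantile normalization they were -0.22 (p = 0.194) and -0.17 (p = 0.209). Markers of cell types differed in the same comparison. All 10 macrophage entries were above 0 (median 0.70, 5 with an unadjusted p below 0.05), with Emr1 and Adgre1 as names of the same gene. Of the adipocyte genes, 8 of 9 were below 0 (median -0.63, 3 below 0.05), and all 5 endothelial genes were below 0 (median -0.41, 2 below 0.05). All 3 brown fat genes tested were below 0 (median -1.77, 2 below 0.05), as were all 6 skeletal muscle genes (median -0.90). All 8 epididymis (median 1.83), 6 testis and sperm (1.25) and 4 mesothelial genes (1.85) were above 0. The medians of the T cell, B cell, erythroid and immediate early lists were 0.48, 0.34, -0.33 and 0.26. None of these markers passed the adjusted threshold, and their part in the chaperone differences was not tested.

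The other members had unadjusted p-values of 0.173 or more in this comparison. Hspa1a differed by 0.42 (SE 0.57), Hspb1 by 0.01 (SE 0.41), Dnajb1 by -0.25 (SE 0.27), Hsph1 by -0.28 (SE 0.28), Hsp90aa1 by -0.30 (SE 0.21) and Hspa8 by -0.07 (SE 0.18). The medians of LFC and HFC were 5.49 and 5.47 for Hspa1a, 4.33 and 4.41 for Hspb1, 4.57 and 4.48 for Dnajb1, 3.06 and 3.03 for Hsph1, 5.44 and 5.41 for Hsp90aa1 and 5.71 and 5.63 for Hspa8. In each of these genes the ranges of the diets overlapped. The Hspa1a difference rested on W12: HFC was higher at 4 of 10 time points, and without W12 the difference was -0.19. The Hspb1 difference turned too, to -0.19 without W12, and was 0.38 without D10. With array brightness as a covariate, Hspa1a was at 1.62 (limma, unadjusted p = 0.0157) and Hspb1 at 0.71 (unadjusted p = 0.164). Dnajb1 differed in sign between its probes, at 0.35 (SE 0.29) in GT_Mm_44k_52_P171663, and Hspa8 was at 0.21 (SE 0.33) in GT_Mm_44k_52_P12877. The change of the difference with elapsed day had an unadjusted p below 0.05 for no member and for 4.37% of probes, and no probe passed the adjusted threshold (0%).

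In the lists, HFC minus LFC passed the adjusted threshold for no gene. The median difference was -0.26 over 7 mitochondrial genes, of which 1 was above 0, and -0.08 over 22 HSF1 response genes and co-chaperones. Of the latter, 2 had an unadjusted p below 0.05: Chordc1, an Hsp90 partner, at -0.45 (SE 0.18) and Dnajb6, an Hsp40, at -0.34 (SE 0.14). The median over 16 endoplasmic reticulum genes was 0.11, and the smallest p among them was that of Sdf2l1 (0.42, SE 0.26). It was 0.09 over the 8 chaperonin subunits, with Cct3 at 0.32 (SE 0.24), and -0.13 over the 5 small heat shock proteins, with Cryab at -0.32 (SE 0.25). The median over all probes was 0.006.

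The second comparison asked whether the members differ between the formulation and the high fat diet alone, over W3 to W18. All 3 doses share the same HFC arrays. The fit held the arrays of every diet over these weeks, LFC among them, with a single estimate of the spread. No chaperone and no probe passed the adjusted threshold for HF5, HF20, HF75 or the mean of the doses (0% of 33717 probes each). Of the 8 genes, 7 were above 0 in the mean of the doses, with a median of 0.13. Dnajb1 was the member of smallest p at every dose. It differed from HFC by 0.42 (SE 0.37, p = 0.26) in HF5, 0.73 (SE 0.37, p = 0.0594) in HF20 and 0.84 (SE 0.37, p = 0.0307) in HF75, each at 5 of 6 time points. In the mean of the doses it was higher by 0.67 (SE 0.30, p = 0.0365, adjusted p = 0.9999), at 6 of 6 time points, but by only 0.25 (p = 0.476) with normexp background correction. The differences between doses were not tested, and the adjusted p of HF75 was 0.9999.

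The Dnajb1 levels behind this were, in HFC, 4.74 at W3, 4.25 at W6, 3.21 at W9, 4.64 at W12, 4.10 at W15 and 4.46 at W18. In HF75 they were 6.03, 4.66, 5.06, 3.87, 5.48 (saturated) and 5.35 at the same time points. HF75 was above HFC everywhere but at W12, where its array was one of the adipocyte-rich ones. Without the adipocyte-rich arrays the mean of the doses was higher by 0.51 (p = 0.04), without the 2 dimmest arrays by 0.58 (p = 0.0659), and with scan day in place of time point as the block by 0.33 (p = 0.32). Without W9 it was 0.39 (p = 0.212). The second Dnajb1 probe gave 0.47 (SE 0.39), higher at 4 of 6 time points.

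Hspa1a was higher by 0.85 (SE 0.79, p = 0.294) in the mean of the doses, and this rested on W9: without W9 the difference was -0.27. The remaining members were between -0.11 (Hspb1) and 0.16 (Hsp90aa1), with Hsph1 at 0.13 (SE 0.30), Hspd1 at 0.12 (SE 0.22), Hspe1 at 0.02 (SE 0.20) and Hspa8 at 0.003 (SE 0.18). Unadjusted p-values below 0.05 were found for 0 of 8 members in HF5 (4.73% of probes), 0 in HF20 (1.53%), 1 in HF75 (1.95%) and 1 in the mean of the doses (1.74%). In the lists no gene was below 0.05 unadjusted when the doses were averaged, and list medians ran from -0.23 (small heat shock proteins, with Hspb6 at -0.81, SE 0.57) to 0.12 (endoplasmic reticulum, with Dnajc3 at -0.42, SE 0.28).

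**Figure D5:**
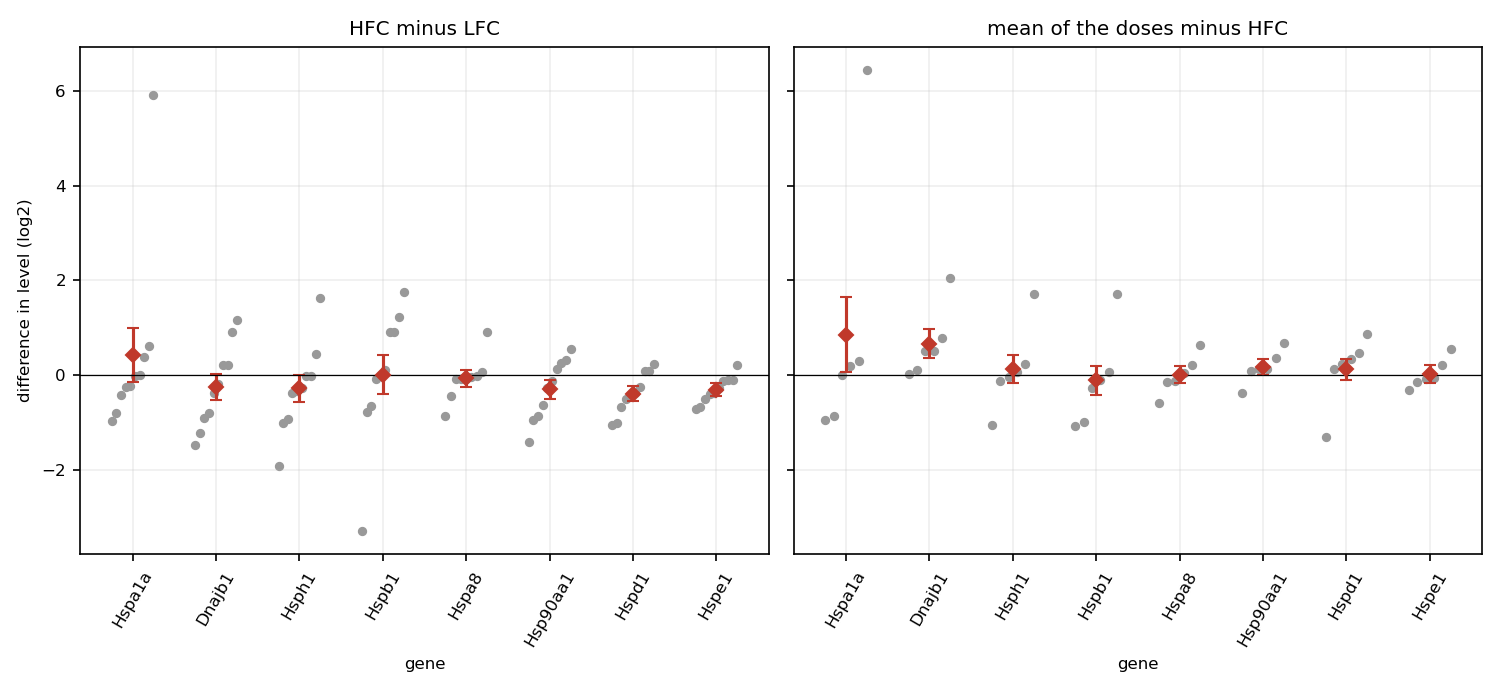
Difference in level (y axis, log2) of the representing probe of each chaperone (x axis), HFC against LFC on the left and the average of the 3 doses against HFC on the right; red diamonds are the limma estimates with their SE and grey points the single time points. The estimates for Hspa1a, 0.42 and 0.85, each rest on 1 time point that lies far above the rest (5.91 at W12 on the left), and Dnajb1 is at 0.67 on the right.

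The third comparison asked whether the level differs between time points, with diet as a block, over the LFC and HFC arrays. The test passed the adjusted threshold for 3.97% of 31022 probes and for none of the 8 chaperones. Unadjusted p-values were below 0.05 for 4 of 8, beside 34% of probes. Hspa1a had the smallest (F = 5.44, p = 0.00465, adjusted p = 0.06188), and its other probes had adjusted p-values of 0.0802 to 0.0984. It passed with the filter that keeps only probes well above background on every array (adjusted p = 0.04695) and without W12 (adjusted p = 0.002275), which leaves LFC W9 and HFC W9 as the low arrays. Hspd1 also passed without W12 (adjusted p = 0.04012) and Hspb1 without D10 (adjusted p = 0.04109). In the test over all time points, Hspd1 (p = 0.0158), Dnajb1 (p = 0.0289) and Hspe1 (p = 0.0311) followed. Time point took 80.7% of the sum of squares for Hspa1a and diet 0.911%. Time point enters this split with more terms than diet, so its raw share would be larger even without an effect. Diet took the largest shares for Hspe1 (13.7%) and Hspd1 (11.9%).

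One gene of the lists passed in this test, Hspb7, a small heat shock protein of muscle (F = 12.2, adjusted p = 0.02729). Dnaja1 (p = 0.016), Dnajb6 (p = 0.024) and Hspa1l (p = 0.0306) had the smallest p-values of the HSF1 list, and Trap1 (p = 0.0256) that of the mitochondrial list. Slopes on elapsed day within a diet passed for no chaperone and no probe (0%). Unadjusted, 0 of 8 members were below 0.05 in LFC (3.89% of probes) and 0 of 8 in HFC (7.87%).

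The members were also set against each other across arrays. Because the adipocyte-rich arrays form a cluster of their own, correlations are given over the 28 arrays outside W9 and W12. The array, its brightness and the spots' ceiling are shared by the members of a pair. Pairs of other probes were not tested, so the counts below have no share over all probes beside them. Of 28 pairs, 12 had an adjusted p below 0.05 in a two-sided permutation test of Pearson's r, all of them positive, and r ran from 0.08 to 0.78 with a median of 0.445. Permuted within time points over the same 28 arrays, 8 pairs passed. The counts depended on the scaling. With quantile normalization 7 pairs passed over these 28 arrays, all positive, and 0 passed within time points (4 before adjustment). The median r was then 0.27, and 19 of 28 pairs were above 0. Over all 38 arrays 13 pairs passed, 12 positive and 1 negative, and with quantile normalization 9 did, 5 positive and 4 negative, with 3 within time points. Without the adipocyte-rich arrays alone, 18 pairs passed, all positive, and 6 did within time points.

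Hspd1 and Hspe1, the genes with the shared promoter stretch, had r = 0.69 (permutation p = 0.00018, adjusted p = 0.001587) and rho = 0.64 (permutation p = 0.00035). Within time points r was 0.74 (permutation p = 0.00244), and without the 2 arrays farthest from the median of Hspd1 it was 0.53. With quantile normalization this pair no longer passed, at r = 0.40 (permutation p = 0.0388, adjusted p = 0.1253). Dnajb1 and Hsp90aa1 had the highest r, 0.78 (permutation p = 1e-05, the smallest the resamples can give) and rho = 0.69 (permutation p = 0.00011), with 0.65 within time points and 0.68 without the 2 farthest arrays. With quantile normalization it was 0.66 (adjusted permutation p = 0.00504) over these 28 arrays, but 0.40 within time points (adjusted permutation p = 0.2157), and 0.23 over all 38 arrays (adjusted permutation p = 0.2337). Hspa1a and Hsph1 had r = 0.74 (permutation p = 7e-05) and rho = 0.57 (permutation p = 0.00173), with 0.49 within time points (permutation p = 0.024, adjusted p = 0.0671) and 0.56 without the 2 farthest. With quantile normalization r was 0.47 (adjusted permutation p = 0.03796) and -0.03 within time points. Hspa1a and Dnajb1 had r = 0.65 (permutation p = 0.00034) and rho = 0.41 (permutation p = 0.0323), and r fell to 0.39 without the 2 farthest arrays. The 7 pairs with Hspb1 had no adjusted p below 0.05 over these 28 arrays, but Hspb1 and Hsph1 passed where the adipocyte-rich arrays alone were left out (r = 0.45, adjusted permutation p = 0.02119).

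The probes most like Hspa1a over all 38 arrays, out of 22588 probes detected above background on nearly all arrays (a share of 0.9 or more), were those of immediate early and stress genes. Their Pearson correlations were 0.95 for Nr4a1, 0.94 for Egr1, Socs3 and Junb and 0.92 for Atf3. These values are a description with no test, since the 4 adipocyte-rich arrays are low in all of them. Over the 28 arrays outside W9 and W12 none of these 5 genes was among the 5 most like Hspa1a, and the first was Jund, at 0.79. The probe most like the mean of the members was that of Gadd45g, at 0.88 over the 38 arrays. Outside W9 and W12, Gadd45g was not among the 5 most like the mean, and the first was LOC100048105, at 0.87.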

How the data were processed

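The 38 arrays are one-colour Agilent arrays of RNA from the stromal vascular cells of epididymal fat. The scanner files the authors deposited hold intensity values, whose processed signal was background subtracted and detrended within an array by Agilent Feature Extraction (version 9.1 in the submitters' processing notes). The deposited series table holds log2 ratios to the LFC array of the time point (checked against the scanner files, lowest correlation 0.992) and was an alternative. Of 43803 non-control spots, outlier spots were left out, and log2 signals were averaged per probe and scaled by the 75th percentile of the array. A probe was tested where it was well above background on 0.5 or more of the arrays of any diet, with two-sided tests in limma 3.58.1 (R 4.3.3). The p-values were adjusted over all tested probes by the Benjamini-Hochberg method, with a threshold of 0.05. The block between diets was the time point, as the labels give it. Correlations used 100000 resamples (Python 3.11.15, scipy 1.17.1). The fits were tested on simulated data. The number of arrays limits the precision, and the p-values measure the spread between arrays. Genes of the lists were named by smallest p (up to 3 in the time point test and 2 in each diet comparison), and the list genes named for the adipocyte-rich arrays were chosen after their values were seen. The members and lists were chosen with earlier results of these data known. The alternatives were other normalizations (for the correlations, quantile), filters and blocks, array brightness, the dose in the diet label, the study's t-test, and arrays left out.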

Additional observations from a re-analysis of the deposited data

Results flagged for a closer look

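In 6 of 40 sets of arrays (8 genes in 5 diets), the highest or lowest array stood far from the others of its diet. The rule flags about 1 in 20 independent sets by chance. The genes share the arrays of a diet, so these sets are not independent. Other probes were not put through the rule, so the count is not a result about chaperones. Of these values, 4 came from adipocyte-rich arrays. Hspa1a was at 0.067 on HFC W9 (next lowest 4.95, W0) and at 2.87 on HF75 W12 (next lowest 5.39, W15). Hsph1 was at 1.94 on HF75 W12 (next lowest 3.20, W6). Hspd1 was at 5.04 on HFC W9 (next highest 4.16, D6).

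The other 2 values came from HF5. Hspd1 was at 4.95 on HF5 W12, the dimmest array (next highest 3.83, W3). Hsp90aa1 was at 4.50 on HF5 W6 (next lowest 5.60, W18), and the LFC, HFC and HF20 arrays of W6 were at 4.46, 4.72 and 4.64. The HF75 array of W6, scanned on another day than these, was higher, at 5.41.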

How the results depend on the processing

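No chaperone and no probe passed the adjusted threshold in any diet comparison or slope under any alternative. The time point test passed 1231 probes, beside 519 with quantile normalization, 2 with normexp, 752 with no filter, 366 without W9 and W12, 675 with array brightness as a covariate, 210 without the adipocyte-rich arrays and 13162 over all 38 arrays, and between 35 (without W9) and 6738 (without W12) with 1 time point left out. Over all 38 arrays Hspb1 (adjusted p = 0.02165), Hsp90aa1 (0.01802), Hspd1 (0.04552) and Hspe1 (0.04092) passed. The time point block pairs the arrays of a time point. With no replicate block, 1109 probes in place of 2819 had an unadjusted p below 0.05 in HFC minus LFC, and no chaperone did, with Hspd1 at -0.39 (p = 0.144). The methods' t-test gave 1103 such probes, 303 of them also at least 2-fold apart, 0 after adjustment, and no chaperone.

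Between members, 13 pairs passed over all 38 arrays and 7 without W9 and W12 with quantile normalization, an alternative chosen after seeing the data. Small differences turned in sign, and the cause was not tested. For HFC minus LFC, Hspa8 became 0.165 with quantile normalization, 0.073 with normexp and 0.159 with array brightness, and brightness also gave 0.343 for Hsph1 and 0.049 for Hsp90aa1. With no change of sign, brightness raised Hspa1a to 1.621 (limma, unadjusted p = 0.0157) and Hspb1 to 0.706 (unadjusted p = 0.164). HFC arrays were brighter than LFC arrays at every time point but W12, so brightness and diet cannot be fully told apart in these values. Without W9 and W12, as without the adipocyte-rich arrays, Hspa1a became -0.214 and Hspb1 -0.198. With 1 time point left out, Hspa1a ran from -0.19 (without W12) to 0.576, Hspb1 from -0.186 (without W12) to 0.375 (without D10) and Hspa8 from -0.193 to 0.03 (without D14). For the mean of the doses minus HFC, quantile normalization gave -0.06 for Hsp90aa1, -0.203 for Hspa8 and -0.013 for Hspe1. Normexp gave -0.236 for Hsp90aa1, -0.323 for Hspa8, -0.26 for Hspd1 and -0.284 for Hspe1, and -0.443 for Dnajb1 in HF5. Brightness gave -0.044 for Hsph1, -0.072 for Hspa8 and -0.027 for Hspe1. Scan day as the block gave -0.152 for Hspa1a, -0.223 for Hsph1, -0.004 for Hsp90aa1, -0.161 for Hspa8 and -0.003 for Hspe1. Without W9 and W12, Hspa1a was -0.095 and Hspa8 -0.009. Without the adipocyte-rich arrays, Hspa1a was -0.042, Hsph1 -0.089 and Hspa8 -0.068, and without the 2 dimmest arrays Hspa8 was -0.055 and Hspe1 -0.049. With 1 time point left out, Hspa1a ran from -0.267 (without W9) to 1.213, Hspa8 from -0.125 to 0.121, Hspb1 from -0.475 (without W9) to 0.083, Hspd1 from -0.027 (without W12) to 0.408, Hspe1 from -0.082 (without W3) to 0.092 and Hsph1 from -0.185 (without W9) to 0.367. The Hsp90aa1 difference of the adipocyte-rich arrays became 0.327 with quantile normalization and 0.143 with normexp. The alternatives without the adipocyte-rich or the dimmest arrays, and the other normalizations of the adipocyte-rich difference, were chosen after seeing the data. Saturated spots limit the upper range of Hspa1a, Hspa8 and Hsp90aa1.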
